A study of Mus musculus with 31 samples.

Results

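The wild-type fetal mouse ovary was compared between 12 and 14 dpc (days post coitum, the age of the embryo counted from mating), the window in which its germ cells enter meiosis. The comparison set 3 arrays at 14 dpc against 2 at 12 dpc, which were all arrays of wild-type ovaries at these ages among the 31 arrays of the series, picked by their sample titles. The series holds ovaries and testes at 12, 14 and 16 dpc of wild-type and of Wv/Wv embryos, and was designed to find genes that differ between the sexes or mark germ cells. Wv is an allele of Kit, the receptor that migrating primordial germ cells depend on, and is known to leave few germ cells in the gonad. Beside the wild-type ovaries, Wv/Wv ovaries (2 arrays at 12 dpc and 3 at 14 dpc) and wild-type testes (1 array at 12 dpc and 3 at 14 dpc) were used to ask whether the change over the window depended on genotype or sex. The labels name no treatment. They count the arrays of a group as biological replicates but give neither the strain nor the number of embryos behind a sample. A p-value here therefore reflects a spread between samples, some of which may be technical. This spread was estimated over 30 arrays in 12 groups of the series and not from the compared arrays alone. RNA came from the whole organ, so that fewer cells of a type and less RNA per cell cannot be told apart.

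Germ cells reach the ovary while still dividing and expressing pluripotency genes. Under retinoic acid and BMP signals they switch on Stra8, replicate their DNA a last time and enter the first meiotic prophase, in which cohesins and the synaptonemal complex hold homologous chromosomes together while programmed DNA breaks are made by Spo11 and repaired with Dmc1. In the testis at the same ages germ cells are kept from meiosis, in part by Cyp26b1, which degrades retinoic acid. The supporting cells of the ovary, the pregranulosa cells, form over the same days under Foxl2 and Wnt4 and later surround the oocytes.

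Values are log2 signals of 1 probe set per gene for 18194 genes, and a difference of 1 on this scale is a 2-fold change. Each change below is the 14 dpc level minus the 12 dpc level with its standard error, fitted with limma together with a term for the array class (below), and a gene was called higher or lower at a Benjamini-Hochberg adjusted p below 0.05. "Rose" and "fell" are used only of called genes. Because the fit takes the class effect out, a change can differ a little from the difference of the printed array values. Log2 signals near the bottom of the scale measure little, and 5.70, the 40th percentile of all values, was taken as the signal limit. For some genes with every array of the dimmer age under that limit, a fold is given. It is the bright mean over the limit, written as "at least".

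The 31 arrays fall into 2 classes by the spread of their values. In 21 arrays the SD over probe sets was between 2.33 and 2.39, and in 10 it was between 1.77 and 2.18, with a smaller difference between the 3′ and 5′ control probe sets of Gapdh (0.70 ± 0.19, SD, against 2.01 ± 0.19). Array 1 of the 14 dpc ovaries was narrow and the other 4 ovary arrays were wide. What makes the class was not tested, and its part in the results was handled only by the term in the fit. Markers of the ovary matched the labels: Foxl2 lay between 7.27 and 9.87 on the 5 arrays, Xist between 11.61 and 12.52, and the testis markers Sox9 (5.19 to 6.48) and Dhh (5.53 to 6.04) stayed low, while in testes the means of Dhh were 10.25 and 10.40.

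Markers of tissue outside the ovary set 2 of the arrays apart. On 14 dpc array 3 the mean of 15 liver genes, a list added after seeing the data, was 8.40, against 4.98 and 5.59 on the other arrays of that age. Of those 15 genes 13 were more than 1 log2 unit above both other arrays, against 85 of all genes. The fetal liver protein gene Afp read 3.04, 9.11 and 13.10 on the 3 arrays in order. On 12 dpc array 1 the mean of 12 genes of mesonephros and kidney tubule, the neighbouring tissue, was 7.91 against 6.76 on array 2, and 6 of the 12 genes were more than 1 unit above array 2, against 218 of all genes. The means of stroma genes (10.30 against 9.60) and of neuron genes (6.17 against 5.75) were also higher there, and the mean of pregranulosa genes was lower (8.01 against 8.71). The part of these transcripts in the changes was not tested, and values without these arrays are given where they bear on a call. Without 1 of the 2 arrays at 12 dpc that age is left with 1 array and less precision. A call can then be lost though the change hardly moves.

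**Figure D1:**
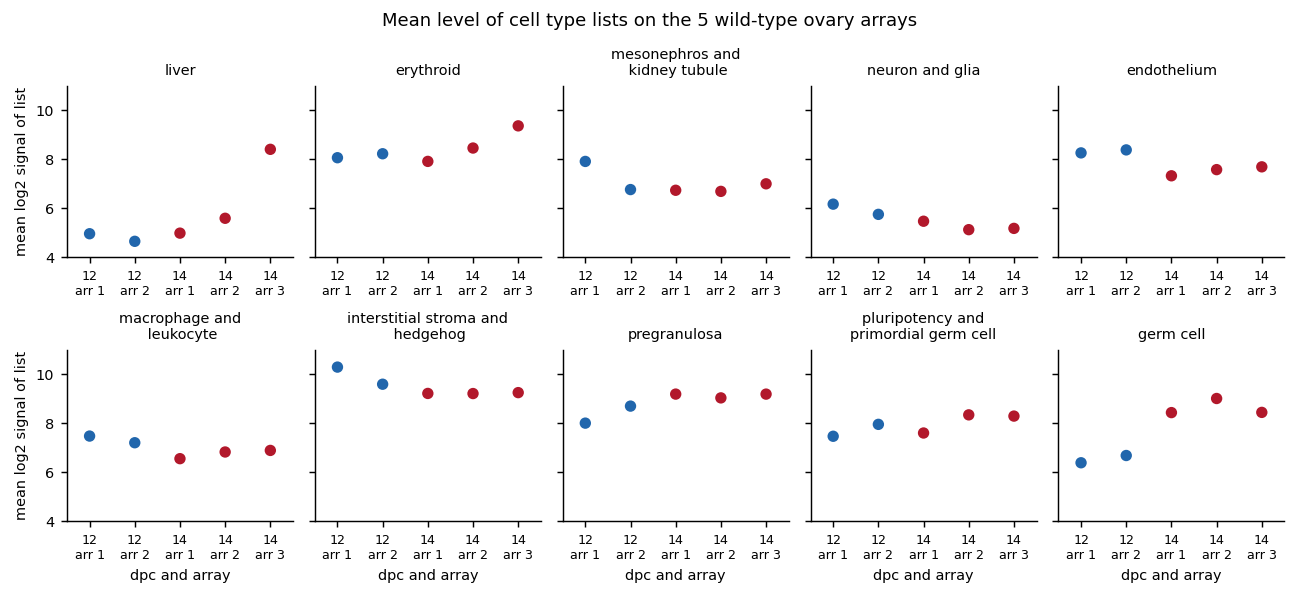
Mean log2 signal of the genes of 10 lists (y axis) on each of the 5 wild-type ovary arrays (x axis, by age and array number), 1 panel per list. The germ cell list stands higher on all 3 arrays at 14 dpc, the liver list stands high on 14 dpc array 3 (8.40), and the mesonephros list stands high on 12 dpc array 1 (7.91).

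Between 12 and 14 dpc 1491 genes were called higher, 8.2% of those tested, and 914 lower, 5.02%. The counts of called genes in the lists below are to be read beside these shares. The 3 values at 14 dpc did not overlap the 2 at 12 dpc in 6300 genes (34.6%), and 1903 of the called genes were also free of overlap. A change of at least 2-fold was reached by 529 genes called higher and 315 called lower, and at least 8-fold by 45 and 12. The median change over all genes was -0.01. The count rested strongly on 12 dpc array 1: without it 551 genes were called higher and 283 lower, and without 14 dpc array 2 the counts were 988 and 513. With each of the 5 arrays left out in turn, 485 of the higher and 166 of the lower calls held every time.

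Genes of germ cells and meiosis were among the largest rises. Of the 15 largest rises among non-overlapping genes, 8 belong to lists of meiosis genes written for this comparison (Stra8, Meioc, Sycp3, Tex12, Mael, Smc1b, Sycp1 and Dazl) and another 3 to the germ cell list (Slc25a31, Tex101 and Stk31). Mael and Dazl are in the germ cell list as well. Of the 59 genes measured in 6 meiosis lists 41 rose and none fell, against 8.2% and 5.02% of all genes, with a median change of 1.92. The values of 44 did not overlap between the ages, against 34.6% of all genes. In 33 of the 41 genes that rose the call held with each array left out. The same 59 genes had a mean of 6.39 and 6.53 on the 12 dpc arrays and of 8.42, 8.83 and 8.14 on the 14 dpc arrays. The lists were written with earlier results of these data known, so the counts describe them and are no independent evidence.

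**Figure D2:**
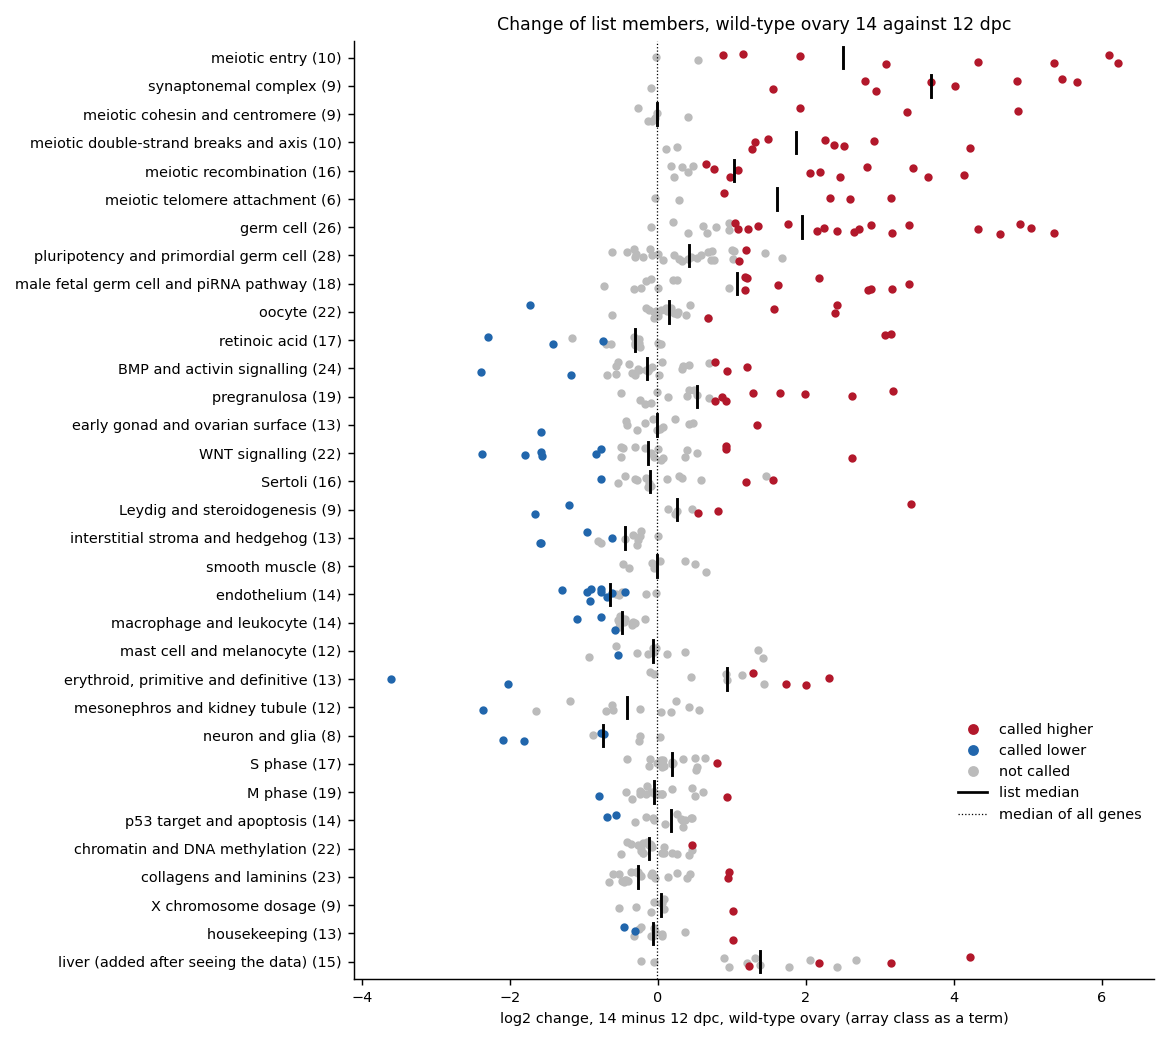
Change from 12 to 14 dpc in wild-type ovaries (x axis, log2) of each measured gene, by gene list (y axis). Red points were called higher, blue lower and grey neither, a black bar marks the median of the list and the dotted line the median over all genes (-0.01). Synaptonemal complex genes have a median of 3.69 and endothelial genes one of -0.65.

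Stra8, which responds to retinoic acid and is needed for meiosis to start, was among the largest rises. Its signal was 5.24 and 5.24 at 12 dpc and 11.75, 12.11 and 10.95 at 14 dpc. It was under the signal limit on both arrays at 12 dpc and far above it on every array at 14 dpc. The change was 6.22 ± 0.55 (adjusted p = 7.98e-08), at least 59.6-fold. Meioc, which with Ythdc2 removes mitotic transcripts as meiosis begins, went from 2.89 and 3.02 to 8.41, 9.71 and 8.83, a change of 6.09 ± 0.25 (adjusted p = 2.29e-13), at least 9.70-fold. The groups were far apart in both genes.

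Of 10 genes measured for meiotic entry 8 rose, with a median change of 2.5. Dazl, an RNA-binding protein that makes germ cells competent for oogenesis or spermatogenesis, was well expressed at 12 dpc (8.30 and 8.82) and reached 12.77, 12.52 and 12.27 at 14 dpc, a change of 4.33 ± 0.57 (adjusted p = 2.02e-05). Mael, a factor of the piRNA pathway, rose from 5.11 and 5.63 to 10.26, 11.12 and 10.44, by 5.35 ± 0.33. Rbm46, an RNA-binding partner of the Meioc complex, rose from 6.28 and 6.45 to 7.98, 9.60 and 8.88, by 3.08 ± 0.34. In each of these genes all 14 dpc arrays lay above both 12 dpc arrays.

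Rec8, the meiotic kleisin of cohesin and another early target of retinoic acid, was well above the limit at 12 dpc (8.24 and 9.07) and stood at 10.71, 10.61 and 10.32 at 14 dpc. Its change was 1.92 ± 0.31 (adjusted p = 0.000175), and the groups did not overlap. Zglp1, a zinc-finger factor downstream of BMP signals, changed by 1.15 (6.37 and 6.14, then 8.03, 7.62 and 6.97). Ythdc2, the RNA helicase that partners Meioc, changed by 0.88 and overlapped between the ages (8.79 and 8.51, then 7.54, 9.75 and 9.26). The calls of Zglp1 and Ythdc2 (adjusted p = 0.012 and 0.0175) were lost without 14 dpc array 2 (0.0628 and 0.0941). They were also lost without 12 dpc array 1 (changes 1.27 and 1.02) or 12 dpc array 2 (1.04 and 0.74). The cyclin Ccnb3 (0.54, adjusted p = 0.402) and the kinase Cdk2 (-0.02, adjusted p = 0.969) were not called.

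**Figure D3:**
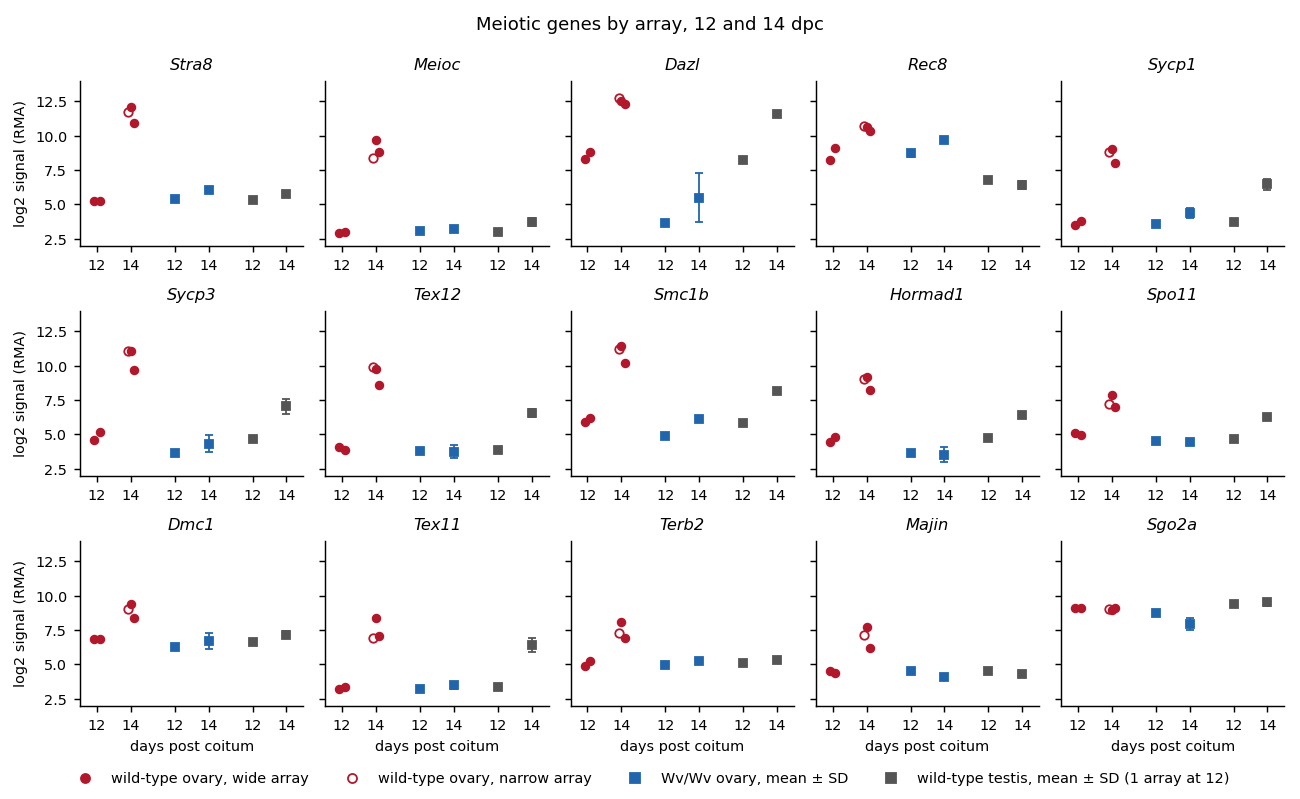
Log2 signal (y axis) at 12 and 14 dpc (x axis) of 15 meiosis genes, 1 panel per gene. Points are single wild-type ovary arrays, with the narrow array open, and the other symbols are means ± SD of Wv/Wv ovaries and of wild-type testes (1 array at 12 dpc). In wild-type ovaries at 14 dpc Stra8 stands between 10.95 and 12.11 and Meioc between 8.41 and 9.71, while Sgo2a was not called (-0.01).

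The bases before the start of 4 of these genes are shown because the genes moved together from near the bottom of the scale and because the same letters recur in front of some of them. They are the 250 bases upstream of the RefSeq start in GRCm38.p6, on the plus strand: Stra8 at chr6:34920698-34920947, Meioc at chr11:102665335-102665584, Sycp3 at chr10:88459337-88459586 and Hormad1 at chr3:95559427-95559676. Capitals mark matches, on either strand, to the E-box CACGTG and to GCGGGAA, a form of the site bound by the E2F family including E2F6.
Stra8: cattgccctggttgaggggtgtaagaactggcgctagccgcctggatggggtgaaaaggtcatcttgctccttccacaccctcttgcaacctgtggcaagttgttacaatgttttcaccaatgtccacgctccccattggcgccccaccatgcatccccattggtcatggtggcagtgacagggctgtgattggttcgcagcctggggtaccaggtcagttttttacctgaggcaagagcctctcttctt
Meioc: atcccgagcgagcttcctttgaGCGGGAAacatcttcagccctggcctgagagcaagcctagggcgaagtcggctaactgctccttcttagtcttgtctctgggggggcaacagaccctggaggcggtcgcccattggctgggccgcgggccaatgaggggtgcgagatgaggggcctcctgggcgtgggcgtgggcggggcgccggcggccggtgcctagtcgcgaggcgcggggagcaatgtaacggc
Sycp3: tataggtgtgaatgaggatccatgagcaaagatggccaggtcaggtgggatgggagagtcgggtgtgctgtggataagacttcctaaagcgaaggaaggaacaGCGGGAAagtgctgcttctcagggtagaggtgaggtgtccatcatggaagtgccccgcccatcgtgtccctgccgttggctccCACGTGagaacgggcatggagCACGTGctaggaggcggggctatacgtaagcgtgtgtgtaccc
Hormad1: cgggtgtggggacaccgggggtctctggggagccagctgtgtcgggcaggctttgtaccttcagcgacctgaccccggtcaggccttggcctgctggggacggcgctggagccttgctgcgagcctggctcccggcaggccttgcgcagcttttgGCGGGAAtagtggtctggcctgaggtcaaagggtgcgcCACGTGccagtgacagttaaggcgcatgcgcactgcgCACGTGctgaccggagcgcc
Positions are those of the first base of a match, counted back from -1 just before the start. Hormad1 held CACGTG at -57 and -20 and GCGGGAA at -95. Sycp3 held CACGTG at -64 and -43 and GCGGGAA at -147, and Meioc held GCGGGAA at -228. Stra8 held neither in this window.

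Over the window from 250 bases before to 50 bases after the start, 33 of the 41 meiosis genes that rose had a promoter in the RefSeq table, and 14453 of all genes tested. CACGTG was found in 12 of the 33 (36.4%), in 11.8% of all genes called higher, in 9.56% of those called lower and in 10.2% of all tested. GCGGGAA was found in 11 of the 33 (33.3%), in 12.4% and 7.88% of genes called higher and lower, and in 7.95% of all. CNCCTCAG, the site bound by STRA8 and MEIOSIN with N for any base, was found in 8 of the 33 (24.2%), in 15.8% and 7.74% of genes called higher and lower, and in 10.6% of all. In the upstream 250 bases alone it was found in 4 of the 33 (12.1%), against 8.44% of all, so its share depended on the bases after the start. The DR5 form of the retinoic acid response element was found in 0 of the 33 and in 0.0761% of all. All motifs were searched on both strands, and matches of different motifs can share end bases. The shares are descriptions of these letters in these windows, and a match is not a bound site.

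Of 9 synaptonemal complex genes measured 8 rose, each with the call held in all leave-outs, and the median change was 3.69. Sycp3, an axial element protein, went from 4.62 and 5.18 to 11.05, 11.06 and 9.66, by 5.66 ± 0.43 (adjusted p = 8.44e-09), at least 29.6-fold. Sycp1, which forms the transverse filaments, went from 3.49 and 3.80 to 8.82, 9.07 and 8.04, by 4.86 ± 0.30 (adjusted p = 3.2e-10), at least 7.67-fold. Tex12 of the central element went from 4.06 and 3.88 to 9.91, 9.76 and 8.60, by 5.46 ± 0.37, at least 13.1-fold. Array 3 had the lowest value of the 14 dpc arrays in all 3 genes and still lay far above 12 dpc.

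Among the other members, Syce1 of the central element rose from 5.36 and 5.73 to 9.88, 9.98 and 8.85, by 4.02. Sycp2, the axial partner of Sycp3, rose from 4.77 and 4.59 to 8.08, 9.13 and 7.57, by 3.69. The remaining 3 were 4930447C04Rik, the gene of the central element protein SIX6OS1 (2.94), Syce3 (2.80) and Syce2 (1.55). Syce2 was bright at both ages, at 10.06 and 10.23 and then 11.95, 11.79 and 11.16. Sycp2l, a paralogue of Sycp2 known from later oocytes, was the member not called (-0.10, adjusted p = 0.801).

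Among cohesins the measured subunits made for meiosis rose, while those shared with mitosis were not called. The centromere guardians were not called either. Of 9 measured 3 rose (Rec8, Smc1b and Stag3), all in every leave-out, and the median of the list was -0.01. Smc1b went from 5.88 and 6.17 to 11.22, 11.41 and 10.18, by 4.87 ± 0.32 (adjusted p = 6.51e-10). Stag3 went from 7.06 and 7.55 to 10.45, 10.79 and 10.00, by 3.36 ± 0.34 (adjusted p = 4.53e-07). The mitotic subunits changed by 0.41 (Smc3, adjusted p = 0.0609), -0.27 (Smc1a) and -0.04 (Rad21). Smc3 was called higher without 14 dpc array 3 (0.50, adjusted p = 0.0369). The centromere guardians changed by -0.01 (Sgo2a), -0.08 (Sgo1) and -0.13 (Meikin), none of them called.

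Genes for making meiotic DNA breaks and for the chromosome axis rose in 8 of 10 cases, with a median change of 1.87. Spo11, the enzyme that cuts the DNA, went from 5.09 and 4.96 to 7.21, 7.83 and 7.02, by 2.26 ± 0.29 (adjusted p = 1.25e-05). Hormad1, an axis protein that promotes breaks on unpaired chromosomes, went from 4.41 and 4.81 to 9.04, 9.20 and 8.20, by 4.21 ± 0.32 (adjusted p = 8.44e-09). Both groups of arrays were clearly apart in these genes. The partners of Spo11 in break formation, Mei4 (2.92, from 3.93 and 4.55 to 5.85, 7.82 and 7.20) and Rec114 (2.51, from 5.22 and 6.02 to 8.63, 8.50 and 7.53), rose as well.

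Prdm9, the methyltransferase that places the break hotspots, was low even at 14 dpc. Its signals were 4.87 and 4.56, then 6.63, 6.37 and 5.50, a change of 1.27. Hormad2 changed by 1.32, Mei1 by 1.48 and Tex19.1, a retrotransposon repressor, by 2.38. The call of Mei1 was lost without 12 dpc array 2 (adjusted p = 0.0615) and that of Tex19.1 without 12 dpc array 1 (0.0775). Ankrd31 (0.10) and Trip13, which strips HORMADs from synapsed axes (0.26), were not called.

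Of 16 recombination genes 11 rose, and the median was 1.02. Dmc1, the strand-exchange protein of meiosis, went from 6.85 and 6.82 to 9.01, 9.39 and 8.39, by 2.20 ± 0.27 (adjusted p = 8.51e-06). Tex11, an X-linked crossover factor, went from 3.23 and 3.38 to 6.90, 8.37 and 7.06, by 4.13. Ccnb1ip1, a ligase that limits crossover sites, went from 4.06 and 4.64 to 7.41, 8.92 and 7.85, by 3.65. All 3 were free of overlap.

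Hsf2bp, a partner of BRCA2 in meiosis, rose by 3.44, Tex15 by 2.82 and the crossover factor Msh4 by 2.05. Meiob, a single-strand DNA binding protein, changed by 2.46 (adjusted p = 2.02e-05), but its means were under the signal limit at both ages (2.90 and 2.96, then 5.67, 6.23 and 4.53), so no fold is given. Mnd1 rose by 0.76. Of the genes also used in somatic repair, Mcm8 rose by 1.08, Brca2 by 0.97 and Brca1 by 0.64. Without 12 dpc array 1 the calls of Brca2 (adjusted p = 0.0578), Mnd1 (0.25) and Brca1 (0.212) were lost. Mnd1 also lost its call without 12 dpc array 2 (0.0916), 14 dpc array 1 (0.0727) or 14 dpc array 2 (0.213), and Brca1 without 14 dpc array 2 (0.0691). Psmc3ip (0.22), Msh5 (0.32), Mlh3 (0.47), Brip1 (0.41) and Exo1 (0.17) were not called.

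The proteins that tie meiotic telomeres to the nuclear envelope are encoded by Terb1, Terb2 and Majin, and all 3 rose. Terb1 went from 4.54 and 4.31 to 8.46, 8.23 and 6.51, by 3.15. Majin went from 4.52 and 4.36 to 7.12, 7.74 and 6.20, by 2.59 ± 0.26 (adjusted p = 3.13e-07), and Terb2 from 4.88 and 5.22 to 7.26, 8.08 and 6.95, by 2.33 ± 0.23 (adjusted p = 2.73e-07). The telomere protein Terf1, which somatic cells also use, rose by 0.90 and lost its call without 12 dpc array 1 (change 0.85). The nuclear envelope proteins Sun1 (0.28) and Sun2 (-0.04) were not called, so 4 of 6 genes rose (median 1.61).

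General germ cell genes rose in 18 of 26 cases, with a median of 1.95. Ddx4, the RNA helicase that marks germ cells, went from 8.08 and 8.60 to 10.62, 11.66 and 11.32, by 3.40 ± 0.50 (adjusted p = 6.39e-05). Slc25a31, the germ cell form of the mitochondrial ADP/ATP carrier, rose by 5.04 (5.73 and 6.58, then 10.51, 11.45 and 10.69). Tex101, a surface protein of germ cells, rose by 4.89 (4.20 and 4.02, then 9.87, 9.54 and 7.92), at least 10.6-fold. Stk31, a Tudor-domain kinase, rose by 4.62 (5.50 and 6.28, then 9.65, 10.97 and 10.29). Sohlh2, a bHLH factor needed by small oocytes and by spermatogonia, rose by 2.42, and the homeobox genes Rhox6 (0.67, adjusted p = 0.538) and Rhox9 (0.96, adjusted p = 0.206) were not called.

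Of 18 genes of male fetal germ cells and of the piRNA pathway, which silences transposons, 9 rose (median 1.07). Piwil2 went from 5.89 and 6.74 to 8.47, 9.51 and 9.09, by 2.84, and the helicase Mov10l1 from 5.58 and 5.66 to 8.42, 9.42 and 8.51, by 3.16, at least 8.45-fold. Gtsf1 rose by 2.88 and Asz1 by 2.17. The male germ cell signals of the same list were not called: Lefty1 stayed between 5.42 and 5.78 on all 5 arrays, all close to the signal limit.

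Of 28 genes of pluripotency and of primordial germ cells 2 were called higher (Alpl by 1.19 and Fut4 by 1.09), and both calls were lost without 12 dpc array 1 (adjusted p = 0.277 and 0.0841). Over all genes 8.2% were called higher. The median was 0.42, and with the wide arrays alone 10 were called higher. Pou5f1 was at 8.00 and 8.79, then 9.05, 9.67 and 9.43 (1.02, adjusted p = 0.264). Sox2 was at 7.76 and 8.71, then 7.95, 9.53 and 9.10 (0.76, adjusted p = 0.637), with overlap between the ages. Nanog was near the limit throughout, at 5.82 and 6.21, then 5.61, 5.63 and 5.84 (-0.31, adjusted p = 0.477). Kit was at 9.10 and 9.24, then 8.37, 9.93 and 9.79 (0.68, adjusted p = 0.069).

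Of 22 oocyte genes 4 rose and 1 fell (median 0.14). Figla, which switches on the zona pellucida genes in growing oocytes, went from 4.56 and 4.66 to 6.70, 6.73 and 5.34, by 1.57 (adjusted p = 0.000214). Taf4b, a germ cell form of a general transcription factor subunit, went from 7.00 and 7.31 to 9.36, 9.76 and 9.33, by 2.39. Lhx8, a homeobox gene of oocytes, changed by 0.68 (adjusted p = 0.0386) with both ages under the signal limit, and its call was lost without 12 dpc array 1 (0.192), 12 dpc array 2 (0.143), 14 dpc array 2 (0.172) or 14 dpc array 3 (0.0859). The genes of later oocytes were not called: Zp2 of the zona pellucida changed by 0.00, the growth factor Gdf9 by 0.26 and Nobox by -0.05. Jag1, a Notch ligand, was called lower (-1.73, adjusted p = 0.00667), but its values overlapped (8.90 and 7.74, then 8.90, 6.51 and 6.57) and the call was lost without 12 dpc array 1 (0.234).

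Retinoic acid genes moved in both directions, 2 higher and 3 lower of 17 (median -0.31). Aldh1a1, which makes retinoic acid, rose from 8.89 and 9.91 to 12.02, 12.54 and 12.29, by 3.07 ± 0.33 (adjusted p = 8.9e-07). Aldh1a2, the enzyme of the mesonephros and gonad known to supply most of the early retinoic acid, fell by 0.74 (adjusted p = 0.0448). Its call was lost without any 1 of 4 arrays, and without 12 dpc array 1 its change was -0.43 (adjusted p = 0.565). Cyp26b1, the degrading enzyme, fell from 7.07 and 7.46 to 5.64, 5.74 and 5.76, by 1.42 (adjusted p = 0.00163). The groups were apart in Aldh1a1 and Cyp26b1.

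Rarb, a receptor that is itself a retinoic acid target, went from 8.55 and 7.35 to 5.37, 5.44 and 5.83 (-2.30, adjusted p = 0.00842), and without 12 dpc array 1, the array with high mesonephros genes, its adjusted p was 0.211. Rbp4, the plasma retinol carrier made in the liver, was at 5.22 and 5.34, then 6.55, 7.55 and 10.41 (3.15, adjusted p = 0.00183), highest on the array with liver transcripts, and changed by 2.00 without that array (adjusted p = 0.00732). Crabp2 changed by -1.17 (adjusted p = 0.0594).

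Of 24 BMP and activin genes 3 rose and 2 fell (median -0.15). Bmp4 fell from 9.64 and 8.66 to 7.03, 6.73 and 6.64, by 2.40 (adjusted p = 3.68e-05), and this was the call of the list that held in every leave-out. Bmp5 fell by 1.18, and Msx2, a BMP target linked with meiotic entry, rose by 1.2. Bmp2, the BMP made by pregranulosa cells, was at 8.17 and 9.55, then 8.99, 9.52 and 9.51 (0.68, adjusted p = 0.167), and without 12 dpc array 1 its change was -0.01.

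Of 22 WNT genes 3 rose and 6 fell (median -0.13), and the falls were led by secreted signals and inhibitors. The inhibitor Dkk1 fell from 7.30 and 6.39 to 4.98, 5.01 and 5.26, by 1.80 (adjusted p = 8.27e-05). Wnt5a, a ligand of the mesenchyme, fell from 10.27 and 10.13 to 8.87, 9.16 and 9.43, by 0.84 (adjusted p = 0.000525). Dkk2 (-2.38), Sfrp2 (-1.58), Rspo3 (-1.57) and Wnt11 (-0.77) were called lower but lost the call when 1 array was left out, Rspo3 for example without 12 dpc array 1 (adjusted p = 0.581). Of the genes called higher, Lgr5 kept its call in every leave-out, while Rspo1 and Wnt6 did not.

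Pregranulosa genes rose in 8 of 19 cases, none fell, and the median was 0.53 (0.15 without 12 dpc array 1 and 1.15 without 12 dpc array 2). Gng13, a G protein subunit, went from 6.99 and 7.49 to 11.03, 10.19 and 10.49, by 3.18 ± 0.25 (adjusted p = 1.36e-08). Lgr5, the R-spondin receptor of the cortical pregranulosa cells, went from 6.69 and 7.33 to 9.13, 9.80 and 9.72, by 2.62 ± 0.25 (adjusted p = 2.13e-07). Irx3, a homeobox gene of these cells, went from 8.54 and 9.31 to 11.06, 10.59 and 10.91, by 1.99. Foxl2, which keeps the ovarian identity of supporting cells, went from 7.27 and 8.36 to 9.87, 9.34 and 9.47, by 1.65 ± 0.24 (adjusted p = 5.02e-05). In these 4 genes both 12 dpc arrays lay below all 14 dpc arrays, and the calls held in every leave-out.

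Among the early signals of the ovarian pathway, Wnt4 was high at both ages (11.10 and 11.60, then 10.90, 10.92 and 11.22; -0.18, adjusted p = 0.721). Rspo1, the activator of WNT signalling, was at 8.47 and 9.34, then 10.52, 9.78 and 9.62 (0.91, adjusted p = 0.00536). Fst, the activin antagonist follistatin, was at 10.06 and 11.29, then 10.95, 11.38 and 11.59 (0.77, adjusted p = 0.0438), with overlap. Without 12 dpc array 1, where 19 pregranulosa genes had the lower mean, 4 of the list were called, and the adjusted p was 0.302 for Rspo1, 0.88 for Fst, 0.056 for Irx5 and 0.192 for Cdkn1b. Kitl, the ligand of Kit, changed by 0.53 (adjusted p = 0.146) and Runx1 by 0.42.

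**Figure D4:**
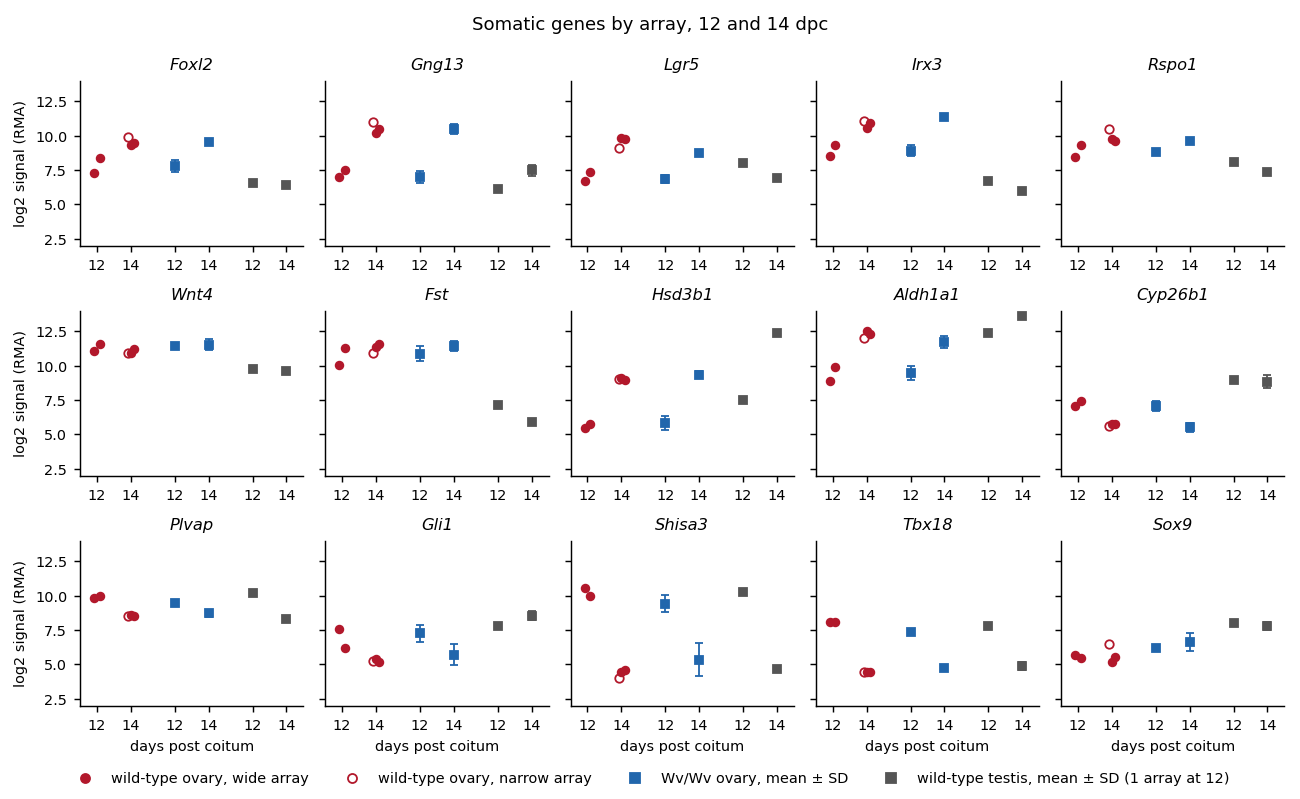
Log2 signal (y axis) at 12 and 14 dpc (x axis) of 15 genes of somatic cells, drawn as in the plot of meiosis genes. Foxl2, Gng13, Lgr5 and Irx3 rise in wild-type ovaries (14 dpc values of Gng13 from 10.19 to 11.03), Plvap, Shisa3 and Tbx18 fall (Shisa3 from 9.95 or more to 4.62 or less), and Sox9 stays at 6.48 or less.

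Among genes of steroid-making cells, the steroid dehydrogenase Hsd3b1 rose from 5.49 and 5.78 to 9.06, 9.08 and 8.95, by 3.42 ± 0.32, and its groups were far apart. Cyp17a1 (0.81) and Fdx1 (0.54) were called higher but not without 12 dpc array 1 (adjusted p = 0.45 and 0.39). The cholesterol side-chain cleavage enzyme Cyp11a1 fell (5.54 and 6.66, then 5.25, 4.82 and 4.74; -1.20), but without 12 dpc array 2 its change was -0.64 (adjusted p = 0.109), and another probe set of the same gene was called in the opposite direction. Mc2r, the corticotropin receptor of adrenal cells, fell from 7.53 and 7.27 to 6.58, 5.53 and 5.75, by 1.67. The counts were 3 higher and 2 lower of 9 (median 0.25). Of 16 Sertoli genes 2 rose (Aard by 1.56 and Mro by 1.18), 1 fell (Sox10 by 0.77), and none of the 3 calls held in every leave-out. Over all genes 8.2% were called higher and 5.02% lower.

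Of 14 endothelial genes 9 fell and none rose, against 5.02% and 8.2% of all genes, with a median of -0.65. The values of 12 did not overlap between the ages, against 34.6% of all genes. Plvap, a protein of fenestrated vessels, went from 9.83 and 9.96 to 8.52, 8.56 and 8.54 (-1.30 ± 0.18, adjusted p = 3.37e-05). Emcn (-0.96), Sox18 (-0.92), Cldn5 (-0.91), Cdh5 (-0.77) and Tie1 (-0.77) also fell. The calls of Flt1, Erg and Esam (-0.68, -0.62 and -0.45) did not hold in every leave-out, and the pan-endothelial markers Kdr (-0.49, adjusted p = 0.0824) and Pecam1 (-0.02) were not called. Macrophage genes were lower in 3 of 14 (Mrc1 by 1.09, Csf1r by 0.77 and Laptm5 by 0.58; median -0.49), and each of these calls was lost in at least 1 leave-out (Csf1r, adjusted p = 0.207 without 12 dpc array 1).

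Stroma and hedgehog genes were lower in 4 of 13 and higher in none (median -0.45). Without 12 dpc array 1 the median was -0.24 and 1 gene was called lower, and without 12 dpc array 2 the median was -0.74. The hedgehog target Gli1 was at 7.61 and 6.21, then 5.21, 5.40 and 5.19 (-1.59, adjusted p = 0.00438, and 0.25 without 12 dpc array 1). Gli2 went from 9.87 and 9.60 to 7.26, 8.71 and 8.83 (-0.96) and kept its call in each leave-out. Nr2f2, an orphan receptor of stromal cells, changed by -1.59 and Pdgfra by -0.62, and without 12 dpc array 1 both calls were lost (adjusted p = 0.138 and 0.0769). Of 8 smooth muscle genes none was called in either direction.

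Some of the lower genes belong to tissues beside the gonad. Cdh16, a kidney cadherin, was at 9.73 and 6.48 on the 12 dpc arrays and at 5.82, 5.40 and 5.89 at 14 dpc (-2.37, adjusted p = 0.032), and without 12 dpc array 1 its adjusted p was 0.759. It was the only one of 12 mesonephros genes called. Of 8 neuron and glia genes 4 were lower (median -0.75), among them Th, the first enzyme of catecholamine synthesis (-2.10, from 7.21 and 5.98 to 4.63, 4.43 and 4.68) and Stmn2 (-1.81). These calls also ended without 12 dpc array 1 (adjusted p = 0.223 for Th and 0.309 for Stmn2).

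Red cells of the embryo are known to pass from a yolk sac to a liver origin over these days. Of 13 red cell genes 4 were called higher and 2 lower. The embryonic globin Hbb-bh1 fell from 12.09 and 12.13 to 8.10, 8.24 and 8.90 (-3.61 ± 0.50, adjusted p = 3.37e-05). Hba-x fell from 12.56 and 12.54 to 10.82, 10.67 and 10.78 (-2.02, adjusted p = 0.0344). Without 12 dpc array 1 Hba-x was not called, with a change of -2.01. Genes of definitive red cell precursors were higher, among them the transcription factor Klf1 (2.00), Rhag (2.32) and the haem enzyme Alas2 (1.73). Each had its highest value on 14 dpc array 3, the array with liver transcripts. Without that array the changes were 1.45, 1.51 and 1.24, and the calls were lost (adjusted p = 0.0681, 0.113 and 0.202). The calls were also lost without 12 dpc array 1, with changes of 1.96, 1.99 and 1.59. The transferrin receptor Tfrc, which other dividing cells also express, rose from 9.89 and 10.16 to 10.58, 11.16 and 11.44, by 1.28, and kept its call. Of the 15 liver genes 4 were called higher. Alb was one of them at 4.22 ± 1.31 (4.76 and 5.24, then 5.97, 7.97 and 12.43, adjusted p = 0.0349). Its change was 2.35 without 14 dpc array 3 (adjusted p = 0.231) and 3.98 without 12 dpc array 1, and it was called in neither case.

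Among the largest falls, Shisa3, an inhibitor of WNT and FGF receptor maturation, went from 10.59 and 9.95 to 3.98, 4.46 and 4.62 (-5.57 ± 0.44, adjusted p = 1.34e-08). Tbx18, a T-box gene of the urogenital mesenchyme, went from 8.11 and 8.07 to 4.45, 4.47 and 4.45 (-3.60 ± 0.41, adjusted p = 2.61e-06). The cadherin gene Cdh10 went from 8.93 and 8.92 to 4.49, 5.31 and 5.54 (-3.66), at least 9.32-fold lower. In all 3 genes the values at 14 dpc were under the signal limit.

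Foxd1, a forkhead gene of kidney stroma, went from 8.35 and 6.51 to 3.83, 4.05 and 3.77 (-3.57), and the neurofilament gene Nefm from 9.58 and 8.82 to 4.88, 5.35 and 5.41 (-3.87), at least 11.3-fold lower. Sprr2d, a small proline-rich protein of epithelia, went from 8.56 and 9.94 to 5.93, 5.41 and 5.74 (-3.61). Tafa2, which encodes a secreted peptide, went from 8.24 and 7.79 to 4.83, 4.83 and 4.73 (-2.93). The others among the 15 largest were Nefl (-3.85), Chgb (-3.51), Pnliprp2 (-3.51), Efemp1 (-3.08), Lrrtm1 (-3.0), Cltrn (-2.92) and Alx1 (-2.88). Without 12 dpc array 1 the adjusted p was 0.172 for Chgb, 0.208 for Efemp1, 0.464 for Lrrtm1 (change -1.70) and 0.143 for Cltrn. Lrrtm1 also lost its call without 14 dpc array 1 (0.0583) or array 2 (0.0545).

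Of 17 S-phase genes 1 rose (Ccne2 by 0.79, adjusted p = 0.0163), which was not called without 12 dpc array 1 (change 0.78). Of 19 M-phase genes 1 rose (Bub1 by 0.93) and 1 fell (Aurkb by 0.80). The medians were 0.18 and -0.06. Of 22 chromatin genes 1 rose (L3mbtl2 by 0.45). Of 14 p53 targets and apoptosis genes 2 fell, Bcl2 by 0.57 and the BH3-only gene Bcl2l11 by 0.69. None of these calls held in every leave-out, Bub1 for example not without 12 dpc array 1 (change 0.92). Of 13 genes of the early gonad and its surface 1 rose (Lhx2 by 1.33, under the signal limit at both ages, and with an adjusted p of 0.0509 without 12 dpc array 1) and 1 fell (Nr2f2, above). Of 23 collagens and laminins 2 rose, Col6a1 by 0.95 and Col6a2 by 0.94 (10.71 and 10.36, then 11.02, 11.44 and 11.36 in the latter), and Col6a1 had an adjusted p of 0.0549 without 12 dpc array 2. Hprt, an X-linked gene of purine salvage, rose by 1.02 (10.04 and 10.24, then 10.62, 11.21 and 10.91), while Xist was not called (-0.53, adjusted p = 0.342).

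The genes whose group means were most like those of Stra8 over the 12 groups of the series, by Pearson's r as a description across group means, were Meioc (0.984), Terb2 (0.974), 1700013H16Rik (0.974), M1ap (0.961) and Gbx2 (0.957). The 12 groups share sex, age and genotype, and Stra8 is high in few of them. 1700013H16Rik went from 3.41 and 3.45 to 7.50, 8.26 and 7.37 in wild-type ovaries, by 4.31 ± 0.24. M1ap, a meiosis gene, had means of 5.38 at 12 dpc and 9.17 at 14 dpc and changed by 3.72, and the homeobox gene Gbx2 had means of 3.75 and 5.50, both under the signal limit, and changed by 1.66. Ugt8a, a galactosyltransferase of sphingolipids, and Tcfl5, a bHLH factor of germ cells, were other large rises outside the lists. Ugt8a went from 5.12 and 4.72 to 9.63, 10.28 and 8.96 (4.70) and Tcfl5 from 5.79 and 5.80 to 8.79, 10.77 and 10.10 (4.30).

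In Wv/Wv ovaries the mean of the 26 germ cell genes was 5.10 and 5.15 on the 12 dpc arrays, against 6.39 and 6.69 in wild type. There 682 genes were called higher between the ages (3.75%) and 533 lower (2.93%). Of the 59 meiosis genes 2 rose there (Dazl and Smc1b) and 4 fell (Sgo1, Psmc3ip, Mcm8 and Brca1), and the mean of the 59 was 5.98 and 6.04 at 12 dpc and 6.20, 5.87 and 5.77 at 14 dpc. The test of whether the change itself differed by genotype called 449 genes with the higher change in wild type (2.47%) and 49 with the lower (0.269%). Other scalings moved the second count more than the first: the counts were 597 and 159 with cyclic loess, 498 and 151 with quantile normalization, and 368 and 101 with centring on housekeeping genes, which shifted the median difference over all genes to -0.10. This comparison shares the wild-type arrays with the first, so the values are set side by side and no overlap of the calls is read.

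Of the 59 meiosis genes 36 had a higher change in wild type by that test, and 27 of these were called with each of the 10 arrays of the 4 groups left out in turn. Stra8 changed by 6.22 in wild type and had means of 5.36 and 6.03 in Wv/Wv ovaries (difference 5.84, adjusted p = 0.00012). Meioc differed by 5.78 (adjusted p = 8.9e-10), Tex12 by 5.48, Sycp3 by 5.05 and Sycp1 by 4.31. In Wv/Wv ovaries Meioc had a mean of 3.23 at 14 dpc, under the signal limit. The mean of the synaptonemal complex genes on the Wv/Wv arrays was also under it, between 4.69 and 5.17. A change in Wv/Wv ovaries is hardly measured at such signals, so the sizes of these differences are not exact. Smc1b rose in both, by 4.87 in wild type and by 1.16 in Wv/Wv (adjusted p = 0.0374), and differed by 3.71. Of the 26 germ cell genes 13 had the higher change in wild type, and of the oocyte genes Figla (1.78) and Taf4b (2.18) did.

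Dazl rose in Wv/Wv ovaries by 2.57 (adjusted p = 0.0103), from a mean of 3.65 to one of 5.50, both under the signal limit. Its array values at 14 dpc ranged from 4.43 to 7.54. The fitted change exceeds the difference of the means because the class term acts on narrow arrays, which Wv/Wv ovaries have at 14 but not at 12 dpc. The change of Dazl did not pass the test of a difference (1.76, adjusted p = 0.305). Ddx4 also did not (1.77, adjusted p = 0.215). Rec8 had means of 8.70 and 9.72 in Wv/Wv ovaries (1.06, adjusted p = 0.0524) and a difference of 0.85 (adjusted p = 0.366).

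Pregranulosa genes changed in Wv/Wv ovaries too. Of the 19 genes 7 rose there and 0 passed the test of a genotype difference, against 3.75% and 2.47% of all genes. Gng13 changed by 3.18 in wild type and 3.15 in Wv/Wv, Foxl2 by 1.65 and 1.57, and Irx3 by 1.99 and 2.56. Outside the list, Hsd3b1 changed by 3.42 and 3.56. The M-phase genes went the other way, with 17 of 19 lower in Wv/Wv ovaries and 8 with a higher change in wild type, Bub1 for example falling by 1.21 in Wv/Wv (difference 2.14, adjusted p = 0.000147). At 14 dpc 2 of the 3 Wv/Wv arrays were narrow, against 1 of 3 in wild type, and the M-phase mean on the wide Wv/Wv array was 9.23, against 8.70 and 8.22 on the narrow ones. In wild type it was 9.61 on the narrow array and 10.05 on both wide ones, and the part of the class beyond its term in the fit was not tested.

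**Figure D5:**
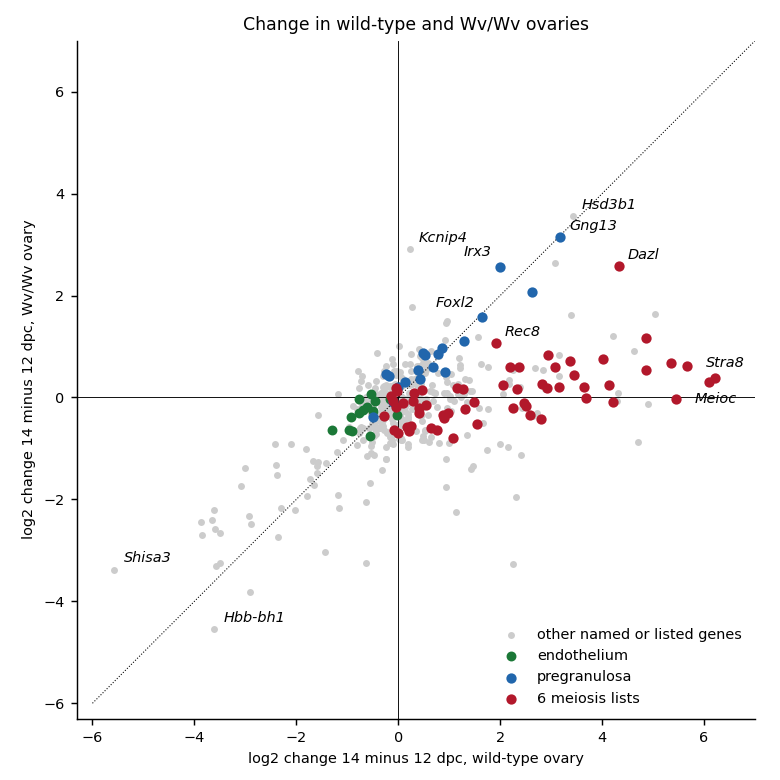
Change from 12 to 14 dpc in wild-type ovaries (x axis, log2) against that in Wv/Wv ovaries (y axis, log2), 1 point per named or listed gene, with a dotted line at equal change. Many meiosis genes (red) lie far to the right near a y of 0, with Stra8 at 6.22 on the x axis, while pregranulosa genes (blue) such as Gng13 (3.18 and 3.15) lie near equal values and endothelial genes (green) lie at or below 0 on the x axis.

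The change over the window was also set against that in wild-type testes. Of these 1 array at 12 dpc was measured and taken to vary like the other groups. That array stayed in every leave-out, so each sex difference below rests on it. Here 205 genes had the higher change in ovaries (1.13%) and 180 the lower (0.989%). Stra8 had means of 5.35 and 5.75 in testes (difference 5.83, adjusted p = 0.000458), and Meioc differed by 5.42. Of the 59 meiosis genes 16 had the higher change in ovaries, and 7 of these were called with each of 8 arrays left out in turn. Rec8 went from 6.78 to 6.42 in testes (difference 2.27, adjusted p = 0.0133, and 0.101 without ovary 12 dpc array 1).

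Dazl had means of 8.24 and 11.57 in testes, and Mael means of 5.25 and 9.26, with a difference of 1.35 (adjusted p = 0.255). Of the 26 germ cell genes 4 had a higher change in ovaries. Rhox6 and Rhox9 were among them through their testis values, which went from 8.15 to 4.99 and from 7.93 to 5.76. Of the 19 pregranulosa genes 8 had a higher change in ovaries. Lgr5 differed by 3.69 and Irx3 by 2.73, both in every leave-out, while Foxl2 (1.79, adjusted p = 0.0114) and Gng13 (1.81, adjusted p = 0.0151) were not called without ovary 12 dpc array 1 (0.0866 and 0.103). Cyp26b1 was at 8.97 and 8.85 in testes, and its difference of -1.29 was not called (adjusted p = 0.185).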

How the data were processed

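The deposited values are log2 signals of 45101 probe sets on 31 arrays. The authors made them with RMA, per the submitters' processing notes, from RNA labelled by in vitro transcription from the 3′ end, per the labels' protocols. RMA equalises the arrays, so a change in total RNA cannot be seen. Which arrays it was run on together is not given in the sources used here. The number of arrays limits the precision.

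Samples were grouped by their titles. The platform annotation gives 1 symbol to 34958 probe sets, several to 932, and does not name 9211. Each of 18194 genes was represented by its brightest probe set on average over the 31 arrays. The test was limma 3.58.1 in R 4.3.3 on 30 arrays, with 12 group means and a narrow-class term (17 residual and 5.41 prior degrees of freedom). Wild-type testis 16 dpc array 1, the narrowest, was left out. The fit was tested on simulated data.

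The comparison, its members and the 33 gene lists (472 genes measured) were chosen with earlier results of these data known. The rule for naming genes took the 15 largest rises and falls among called genes without overlap, up to 6 called genes of a list (the 2 largest where none was called), all genes of 3 meiosis lists, the 5 largest differences each way by genotype and sex, and a set of markers. The text names further members of some lists and fewer of others. Alternatives were no class term, wide arrays only, array weights, low-signal genes left out (12191 kept), every probe set, a minimum of 1.2-fold, cyclic loess, quantile normalization, housekeeping centring, a replicate block, a trended robust prior, only the arrays compared, and each array left out. Leaving out 12 dpc array 1 and 14 dpc array 3 together was added after seeing the data. Promoters are RefSeq's. Python 3.11.15, pandas 2.3.3 and matplotlib 3.10.9 made the tables and figures.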

Additional observations from a re-analysis of the deposited data

Results flagged for a closer look

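The change from 12 to 14 dpc differed by genotype, by the test of the difference itself, in 498 genes. The largest differences toward wild type were in Stra8 (5.84), Meioc (5.78), Ugt8a (5.58), Hemgn (5.51) and Tex12 (5.48), and those toward Wv/Wv in Kcnip4 (-2.68), Bche (-1.5), Pcdh20 (-1.5), Sprr2d (-1.39) and Hoxd10 (-1.31). Kcnip4, a potassium channel subunit, stayed between 3.90 and 4.74 on the 5 wild-type ovary arrays and went from a mean of 4.25 to one of 6.81 in Wv/Wv ovaries (change 2.91, adjusted p = 4.28e-07). Bche, butyrylcholinesterase, was at means of 6.70 and 6.95 in wild type and of 6.44 and 8.18 in Wv/Wv ovaries. Hemgn, a gene of red cell precursors, was at 6.44 and 7.52, then 7.37, 8.88 and 10.58 in wild type, with means of 8.00 and 4.16 in Wv/Wv ovaries. Its difference had an adjusted p of 0.0123, and of 0.151 without Wv/Wv 12 dpc array 2, and it was called in 8 of 10 leave-outs. Those of Pcdh20, Sprr2d and Hoxd10 were called in 3, 3 and 4 of the 10 leave-outs.

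The change differed by sex in 385 genes. The largest differences toward ovaries were in Stra8 (5.83), Meioc (5.42), Prl8a2 (4.92), Tex101 (4.41) and 1700013H16Rik (4.15). Those toward testes were in Cyp11a1 (-6.72), Cyp17a1 (-6.6), Sostdc1 (-5.02), Nts (-4.55) and Pmaip1 (-4.36), all of them higher in testes at 14 dpc than at 12 dpc, Cyp17a1 for example with means of 6.01 and 13.41. Prl8a2, a prolactin family gene of the decidua, read 8.73 on the single testis array at 12 dpc and between 3.58 and 3.90 on the wild-type ovary arrays, so its difference rests on that 1 array. All 10 were called in each of the 8 leave-outs. None of these leave-outs drops the single testis array at 12 dpc, on which every sex difference rests. Groups of 2 and 3 arrays are too small for a test of outlying arrays.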

How the results depend on the processing

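None of the 135 called genes picked by the rule for naming genes changed direction under any alternative that used 1 probe set per gene. With every probe set another one of Cyp11a1 was called in the opposite direction. Of these 135 genes between 81 (without 12 dpc array 1, and with no class term on all 31 arrays) and 133 (array weights) kept their call. The low-signal filter, which removed some of them, is left aside here. Further called genes that the text names were not part of this count. For genes higher and lower with age (1491 and 914), no class term gave 429 and 367, the class term on all 31 arrays 988 and 505, no class term on all 31 arrays 283 and 189, array weights 2289 and 1690, a 1.2-fold minimum 592 and 302, and only the arrays compared 532 and 309. Leaving out 12 dpc array 1 and 14 dpc array 3 gave 670 and 269, and single arrays 551 to 1476 and 283 to 785. For the genotype difference (449 and 49) the same order gave 121 and 6, 200 and 9, 79 and 2, 788 and 167, 165 and 2, and 135 and 4, single arrays gave 171 (without Wv/Wv 12 dpc array 2) to 601 and 7 to 82, and wide arrays 280 higher. Cyclic loess, quantile normalization and housekeeping centring gave 159, 151 and 101 lower. For the sex difference (205 and 180) they were 46 and 62, 100 and 97, 26 and 28, 588 and 478, and 97 and 115, both arrays out 113 and 95, and single arrays 72 to 282 and 99 to 226. The testis array at 12 dpc could not be left out. Pregranulosa genes called higher (8) were 5 with no class term on all 31 arrays, 5 at the 1.2-fold minimum, 4 with only the arrays compared, 4 with both arrays out and 4 to 12 with single arrays out. Endothelial genes called lower (9) were 5, 2 and 5 with no class term, none on all 31 arrays and the 1.2-fold minimum, and 6 to 8 with single arrays out. Meiosis genes called higher (41) were 27 with only the arrays compared and 34 to 42 with single arrays out. Whether the replicate numbers pair samples cannot be told here, since the deviations of the 2 arrays at 12 dpc mirror each other. For the 2 numbers shared by the ages the deviations correlated at 0.123 and 0.1. The replicate block gave 1525 higher and 829 lower.

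The ages have 2 and 3 arrays, and of single arrays 12 dpc array 1 moved the counts with age most (551 and 283). The narrow class is held by 1 array at 14 dpc and none at 12 dpc, and its term was estimated over all groups that hold both classes. Signals under 5.70 bound a fold from one side. Marker genes of mesonephros and liver differ between arrays of an age, and their part in the changes was not tested. The causes of the shifts between alternatives were not tested.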
